A study of Mus musculus with 4 samples.

Results

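The 10 genes described here encode the main steps of MHC class I antigen presentation, and each was found by its gene name in the deposited table of 55450 gene counts. They were the classical heavy chains *H2-K1* and *H2-D1*, the light chain *B2m*, the peptide transporter subunits *Tap1* and *Tap2*, the loading factor *Tapbp* (tapasin), the immunoproteasome subunits *Psmb8*, *Psmb9* and *Psmb10*, and the class I transactivator *Nlrc5*. All 10 names occurred once in the table, and all 10 were among the 16269 genes with enough counts to be tested. The counts came from RNA-seq of MLO-Y4, an osteocyte-like mouse cell line with a WT genotype label, in 2 unloaded and 2 loaded samples.

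The loaded cells received cyclic stretch of 20% strain at a frequency of 0.5 Hz over 12 h, on UniFlex plates with an elastic base and a collagen coat. The unloaded cells sat for 12 h in the incubator of the Flexcell stretching system on ordinary Corning 6-well plates. Both groups started at 60% confluency. Stretch therefore differed between the groups together with the culture surface, and the effects of these factors on the genes below cannot be told apart. All samples came from 1 cell line, and no source used here says whether the replicates were separate cultures, so the p-values measure only the spread between these samples, which may be technical.

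Nearly every nucleated cell shows short peptides from its own proteins on class I molecules, which are read by CD8 T cells and natural killer cells. The proteasome cuts proteins into peptides, the TAP transporter carries the peptides into the endoplasmic reticulum, and tapasin with its partner chaperones helps to load them onto a heavy chain paired with beta-2 microglobulin. Interferon raises most of these genes through factors such as IRF1 and NLRC5, and it also replaces the catalytic subunits of the standard proteasome with those of the immunoproteasome.

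Total counts ranged from 28941994 to 32185693 per library, and 3 counts were worth 0.0930 to 0.103 CPM (a gene's count scaled to a common library total, with TMM factors of 0.983 to 1.01), a floor that covers counting error only. Replicates of a group differed by more than sampling noise, with a chi-square of 17.6 per degree of freedom between the unloaded and 19.0 between the loaded libraries. The median log2 fold change of all tested genes, loaded over unloaded, was −0.01. Of the markers of osteocytes and osteoblasts, *Pdpn*, *Gja1*, *Phex*, *Col1a1* and *Runx2* were present in every library, while *Dmp1*, *Sost*, *Mepe*, *Fgf23*, *Bglap*, *Alpl* and *Sp7* were at or near 0. *Pdpn*, which encodes the early osteocyte marker E11, was higher in loaded cells, with 143 and 151 CPM in unloaded and 215 and 228 CPM in loaded libraries (log2 fold change 0.59, edgeR adjusted p = 0.0334, DESeq2 2.23e-08).

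All 10 class I genes had a negative log2 fold change, and in all 10 both loaded libraries were below both unloaded libraries. The values were between −0.95 for *Psmb9* and −0.09 for *B2m*, with a median of −0.58. Over all tested genes, 51.5% had a negative value, 24.5% had both loaded libraries below both unloaded ones and 22.1% had both above. No member passed the threshold of the main test, edgeR's quasi-likelihood F test at a Benjamini-Hochberg adjusted p under 0.01 over all tested genes, which called 0.0861% of genes lower and 0.0123% higher. None passed at 0.05 either, where 0.565% of genes were lower and 0.338% higher. At an unadjusted p under 0.05, 7 members were lower and 0 higher, against 7.46% of all genes lower and 6.88% higher. Other tools placed the line elsewhere: at an adjusted p under 0.01, DESeq2 called 4 members lower (*H2-K1*, *Tap1*, *Tap2* and *Psmb8*), against 1.52% of its tested genes lower and 1.34% higher. At the same threshold edgeR's exact test called 3 (*H2-K1*, *Psmb8* and *Psmb9*), against 1.08% of genes lower and 0.639% higher, and limma-voom called 0, against 0.0799% lower and 0.0184% higher. The values are relative to all counted RNA, so fewer cells that express a gene and less RNA in each cell cannot be told apart.

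**Figure D1:**
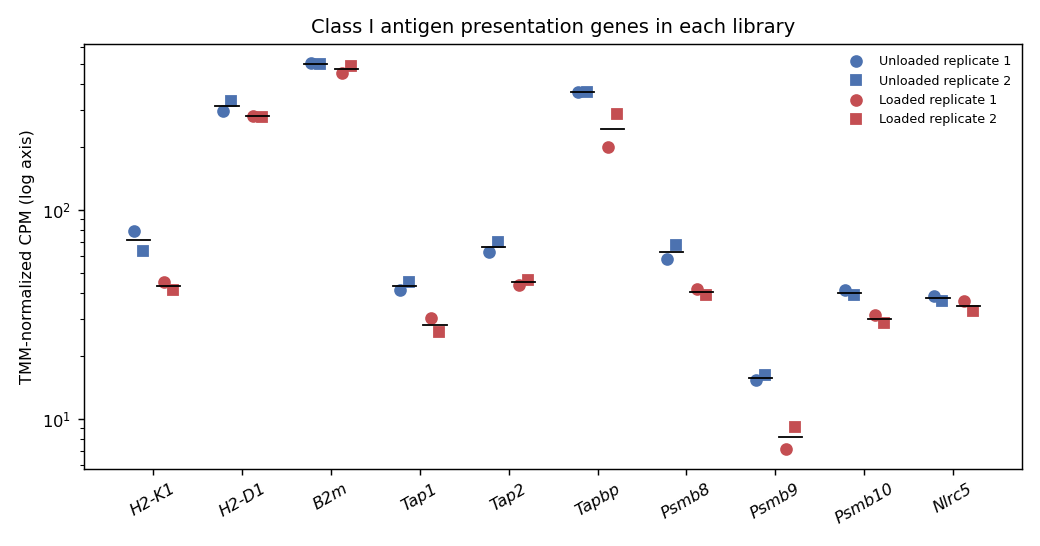
TMM-normalized CPM (log axis) of the 10 class I genes in each library, with circles for replicate 1, squares for replicate 2, blue for unloaded and red for loaded cells, and a bar at each group mean. The groups lie apart for every gene, by most for *Psmb9* and by least for *B2m*, *H2-D1* and *Nlrc5*.

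The promoters of the heavy and light chains are shown first, because these genes share well-known control elements and yet had different values below. A promoter window was taken as the 250 bases before to the 50 bases after the RefSeq start site (GRCm38.p6), and 8 of the 10 members were matched in that table. *Tap2* and *Nlrc5* were not matched. Each line gives the 200 bases that end just before the start site, 5′ to 3′ on the gene's own strand. Capitals mark matches to an interferon regulatory factor (IRF) core, a kB-like site, a CCAAT box (an NF-Y site) or the X2-Y pair of the SXY module, through which NLRC5 acts with RFX, CREB or ATF1 and NF-Y.
H2-K1 (chr17:34000348-34000547, minus strand): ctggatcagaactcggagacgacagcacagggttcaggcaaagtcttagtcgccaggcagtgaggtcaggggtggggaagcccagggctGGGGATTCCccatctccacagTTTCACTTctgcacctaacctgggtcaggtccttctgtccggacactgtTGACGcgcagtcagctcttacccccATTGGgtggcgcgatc
H2-D1 (chr17:35262894-35263093, plus strand): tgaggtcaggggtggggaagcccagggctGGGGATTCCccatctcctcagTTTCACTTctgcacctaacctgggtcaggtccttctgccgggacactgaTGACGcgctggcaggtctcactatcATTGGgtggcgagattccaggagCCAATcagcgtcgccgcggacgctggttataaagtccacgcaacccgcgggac
B2m (chr2:122147487-122147686, plus strand): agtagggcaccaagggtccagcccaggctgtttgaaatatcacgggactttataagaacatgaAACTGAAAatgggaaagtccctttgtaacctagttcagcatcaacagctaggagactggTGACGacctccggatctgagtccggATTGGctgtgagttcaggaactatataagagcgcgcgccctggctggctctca

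The letters searched on both strands were AANNGAAA for the IRF core, GGGNNTTCC for the kB-like site, CCAAT, and TGACG followed by ATTGG after 15 to 25 bases for the X2-Y pair. ATTGG is the reverse complement of CCAAT, so the end of each X2-Y pair is also a CCAAT match. All 3 windows held the IRF core and the X2-Y pair, and both heavy chains also held the kB-like site. Counted from the start site, the IRF core began at −90 in *H2-K1*, −150 in *H2-D1* and −137 in *B2m*. The second CCAAT match of *H2-K1* began at 8, past the start site and outside its printed line, and that of *H2-D1* at −53. The RefSeq start site is thus placed differently in the 2 heavy chain windows, and these distances do not show a difference in sequence. The windows of *H2-K1* and *H2-D1* were identical at 214 of 239 aligned bases (89.5%). Among all 32851 RefSeq windows, 23.9% held the IRF core, 5.82% the kB-like site, 37.4% a CCAAT box and 0.435% the X2-Y pair. Of the 8 matched members, 3 held the IRF core, 2 the kB-like site, 6 a CCAAT box and 3 the X2-Y pair. These matches are letters in a window and were not tested for binding.

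The heavy chains bind the peptide and are recognized by the T cell receptor. *H2-K1* (ENSMUSG00000061232.16, chr17:33996017-34000347 in GRCm38, minus strand) had 79.5 and 63.4 CPM in the unloaded and 45.0 and 41.1 CPM in the loaded libraries. Its groups did not overlap, and the unloaded pair was more spread than the loaded pair. The means were 71.4 ± 11.4 and 43.1 ± 2.71 CPM (SD, n = 2), and the fitted log2 fold change was −0.73 (SE 0.135, 95% interval −1.06 to −0.40, edgeR adjusted p = 0.0935). The adjusted p was 8.94e-05 with DESeq2 and 0.00331 with edgeR's exact test. Without unloaded replicate 1, the higher of the unloaded libraries, the log2 fold change was −0.55.

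*H2-D1* (ENSMUSG00000073411.11, chr17:35262730-35267499, plus strand) was the more abundant heavy chain, with 298 and 333 CPM in unloaded and 282 and 279 CPM in loaded cells. Both loaded values were lower, and the group means differed by about as much as the unloaded libraries differed from each other. The means were 315 ± 24.96 and 281 ± 1.99 CPM, and the log2 fold change was −0.17 (SE 0.0732, 95% interval −0.35 to 0.01, edgeR adjusted p = 0.368). The log2 ratio of *H2-K1* to *H2-D1* within a library, per kilobase of exon, was −2.09 and −2.58 in unloaded and −2.84 and −2.95 in loaded cells. It was thus lower in both loaded libraries, by 0.56 on average, although the unloaded libraries differed from each other by nearly as much. The exact two-sided permutation p was 0.333, the smallest that 2 against 2 libraries allow.

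The 2 genes share stretches with each other and with other class I genes, and reads of these can be assigned to more than 1 gene. Of all 50-base windows of annotated transcripts, 9.6% of those of *H2-K1* and 12.8% of those of *H2-D1* also occur in another gene. The shares were 1.0% and 3.6% at 100 bases, and 0.0% and 1.4% at 150 bases. Between the 2 genes, the 50-base windows shared were 4.1% of those of *H2-K1* and 5.4% of those of *H2-D1*. At 100 bases *H2-K1* shared windows with *H2-Q10*, *H2-Q5* and *H2-Q7*. The read length is not given in the sources used here. The annotation follows the C57BL/6J reference genome, and the H2 haplotype of MLO-Y4 is not given either, so reads of differing alleles may have been lost or moved between these genes.

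*B2m*, which encodes the light chain shared by all class I molecules, lies outside the MHC (ENSMUSG00000060802.8, chr2:122147686-122153083, plus strand). It had 503 and 500.1 CPM in unloaded and 451 and 489 CPM in loaded cells. The unloaded libraries were nearly equal, and the loaded libraries lay below them and further apart from each other. The log2 fold change of −0.09 (SE 0.0624, 95% interval −0.24 to 0.06, edgeR adjusted p = 0.559) was the smallest of the 10. None of the 50-base windows of *B2m* occurs in another gene.

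Because reads may be split among class I genes, the counts of the 19 heavy chain genes matched in the file, which include *H2-K1* and *H2-D1*, were also added and tested as 1 gene. The sum was 708 and 728 CPM in unloaded and 586 and 571 CPM in loaded cells. The groups lay well apart, at 718 ± 14.8 and 578 ± 10.4 CPM. The log2 fold change was −0.31 (SE 0.0533, 95% interval −0.44 to −0.18), which did not pass the edgeR test (adjusted p = 0.0757) and passed with DESeq2 (adjusted p = 0.00215).

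Of 20 other class I heavy chain genes listed, 17 were matched by name and 14 were tested. Their median log2 fold change was −0.42. Of the 14, 11 were negative and 10 had both loaded libraries below both unloaded ones, against 51.5% and 24.5% of all tested genes. None passed the edgeR test at 0.01. At an unadjusted p under 0.05, 6 were lower and 0 higher, against 7.46% and 6.88% of all genes. DESeq2 called 2 lower, *H2-Q4* and *H2-T22*, against 1.52% of its tested genes. *H2-Q4*, a Qa region gene, had 107 and 108 CPM in unloaded and 83.2 and 73.0 CPM in loaded cells (log2 fold change −0.46, SE 0.0928, edgeR adjusted p = 0.110). *H2-T22*, whose nonclassical product is known as a ligand of gamma delta T cells, had 81.8 and 79.5 against 52.4 and 60.8 CPM (−0.51, SE 0.105, edgeR adjusted p = 0.118). *H2-M3*, which presents formylated peptides, stood apart from these: its 38.3 and 34.9 CPM in unloaded cells overlapped 36.7 and 39.8 CPM in loaded cells, at 0.06 on the log2 scale (edgeR adjusted p = 0.837). The *H2-M3* window also held the IRF core and the X2-Y pair. Exons of *H2-T22* overlap those of the antisense gene *A930015D03Rik* over 1003 bp (29.4%), and the antisense gene had 21 and 20 counts in unloaded and 215 and 55 counts in loaded cells. Of the 50-base windows, 21.8% of those of *H2-Q4* and 34.5% of those of *H2-T22* occur in another gene. For *H2-T22*, 31.2% are shared with *H2-T10*. At 100 bases the shares were 2.2% for *H2-Q4* and 8.9% for *H2-T22*, and at 150 bases 0.0% and 0.4%. With short reads, the DESeq2 calls of *H2-Q4* and *H2-T22* may thus not be specific to 1 gene. The read length is not known, and this was not tested.

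*Tap1* and *Tap2* form the transporter that brings peptides into the endoplasmic reticulum. *Tap1* (ENSMUSG00000037321.17, chr17:34187553-34197225, plus strand) had 41.4 and 45.3 CPM in unloaded and 30.4 and 25.9 CPM in loaded cells. Every loaded value was below every unloaded value, and the means of 43.4 ± 2.77 and 28.2 ± 3.18 CPM differed by more than either spread. The log2 fold change was −0.62 (SE 0.120, 95% interval −0.91 to −0.33, edgeR adjusted p = 0.1004, DESeq2 0.00624). *Tap2* (ENSMUSG00000024339.12, chr17:34203527-34216321, plus strand) had 62.9 and 70.5 CPM in unloaded and 43.7 and 46.3 CPM in loaded cells. Its groups were as clearly apart, at 66.7 ± 5.36 and 45.0 ± 1.80 CPM. Its log2 fold change of −0.57 (SE 0.104, 95% interval −0.82 to −0.31, edgeR adjusted p = 0.0910, DESeq2 0.00154) lay well within the interval of *Tap1*.

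Tapasin tethers an empty class I molecule to TAP and edits the peptide. *Tapbp* (ENSMUSG00000024308.15, chr17:33915899-33929292, plus strand) had 368 and 367 CPM in unloaded and 200.4 and 289 CPM in loaded cells. The unloaded libraries were almost equal, whereas the loaded libraries differed from each other more than those of any other member did. The means were 368 ± 0.702 and 245 ± 62.6 CPM, and the log2 fold change was −0.59 (SE 0.161, 95% interval −0.98 to −0.19, edgeR adjusted p = 0.187). Its size rests on which loaded library is used: it was −0.35 without loaded replicate 1 and −0.88 without loaded replicate 2. Exons of *Tapbp* overlap the antisense gene *Gm19412* over 904 bp (24.9%), which had 126 to 205 counts per library against 6465 to 11130 for *Tapbp*.

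The chaperones that work with tapasin were less far from 0. Of the 6 listed genes for peptide loading and trimming, 5 had a negative log2 fold change, against 51.5% of all tested genes, with a median of −0.21. At 0.01, 0 passed the edgeR or DESeq2 test. At an unadjusted p under 0.05, 4 were lower, against 7.46% of all genes. *Calr*, encoding calreticulin, had 1558 and 1528 CPM in unloaded and 1277 and 1423 CPM in loaded cells (log2 fold change −0.19, edgeR adjusted p = 0.263). *Pdia3*, encoding the disulfide isomerase ERp57, had a value of −0.22 (0.203). *Canx*, encoding calnexin, had 1280 and 1194 against 1085 and 1281 CPM, so its groups overlapped (−0.06, 0.800). Other proteins are folded with these 3 chaperones too.

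The 3 immunoproteasome subunits replace the catalytic subunits of the standard proteasome: LMP7 (*Psmb8*) takes the place of *Psmb5*, LMP2 (*Psmb9*) that of *Psmb6*, and MECL-1 (*Psmb10*) that of *Psmb7*. *Psmb8* (ENSMUSG00000024338.15, chr17:34197721-34201454, plus strand) had 57.8 and 67.9 CPM in unloaded and 41.9 and 39.3 CPM in loaded cells. The difference between the means of 62.9 ± 7.12 and 40.6 ± 1.85 CPM was larger than the spread of either group. The log2 fold change was −0.63 (SE 0.116, 95% interval −0.91 to −0.35, edgeR adjusted p = 0.0908, DESeq2 0.000698).

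*Psmb9* (ENSMUSG00000096727.3, chr17:34181987-34187764, minus strand) was the least abundant member, with 15.3 and 16.1 CPM in unloaded and 7.13 and 9.16 CPM in loaded cells. These rest on 443 and 488 against 230 and 273 counts. The groups did not overlap, and the loaded mean was 0.519 times the unloaded mean in the fit, the lowest ratio of the 10. The log2 fold change was −0.95 (SE 0.177, 95% interval −1.38 to −0.51, edgeR adjusted p = 0.0953). In DESeq2 it reached 0.01003, just above the threshold, and in edgeR's exact test 0.00645. In all, 3.68% of tested genes had a lower log2 fold change.

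*Psmb10* lies outside the MHC (ENSMUSG00000031897.9, chr8:105935735-105938444, minus strand). It had 41.3 and 39.1 CPM in unloaded and 31.2 and 28.7 CPM in loaded cells. The 2 groups were each tight, at 40.2 ± 1.54 and 29.96 ± 1.81 CPM, and did not overlap. The log2 fold change was −0.42 (SE 0.102, 95% interval −0.67 to −0.17, edgeR adjusted p = 0.148). None of the alternatives called *Psmb10* or, among the other members, *H2-D1*, *B2m* or *Nlrc5*.

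The standard subunits were on the other side of 0. *Psmb5* had 119.8 and 141 CPM in unloaded and 157 and 155 CPM in loaded cells, which is 0.26 on the log2 scale (SE 0.0939, edgeR adjusted p = 0.301). *Psmb6* was at 0.12 (0.631) and *Psmb7* at 0.13 (0.499), and neither passed the test. Of 11 other subunits of the 20S core, 3 had a negative value and 8 a positive one, against 51.5% of all tested genes negative. They lay between −0.10 and 0.17. None passed at an unadjusted p under 0.05, against 7.46% of all genes lower and 6.88% higher. None passed in DESeq2 at 0.01, against 1.52% and 1.34% of its tested genes. The most abundant of these 11 were *Psma6* (0.09), *Psmb4* (0.02) and *Psmb1* (−0.03).

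The log2 ratio of each inducible subunit to the subunit it replaces was computed within each library from counts per kilobase of exon. *Psmb8* to *Psmb5* was −2.96 and −2.97 in unloaded and −3.81 and −3.90 in loaded cells. In linear terms *Psmb8* was 0.128 of *Psmb5* in both unloaded libraries, against 0.0711 and 0.0672 after loading. *Psmb9* to *Psmb6* was −3.71 and −3.74 against −5.09 and −4.51, with the loaded libraries 0.58 apart. *Psmb10* to *Psmb7* was −1.20 and −1.38 against −1.85 and −1.84. All 3 ratios were lower in both loaded libraries, by 0.89, 1.08 and 0.55 on average, and each difference was larger than the spread in either group. The exact two-sided permutation p was 0.333 for each of the 3, the smallest the design allows, so this test could not call a difference. These are RNA ratios and give no measure of assembled proteasomes.

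**Figure D2:**
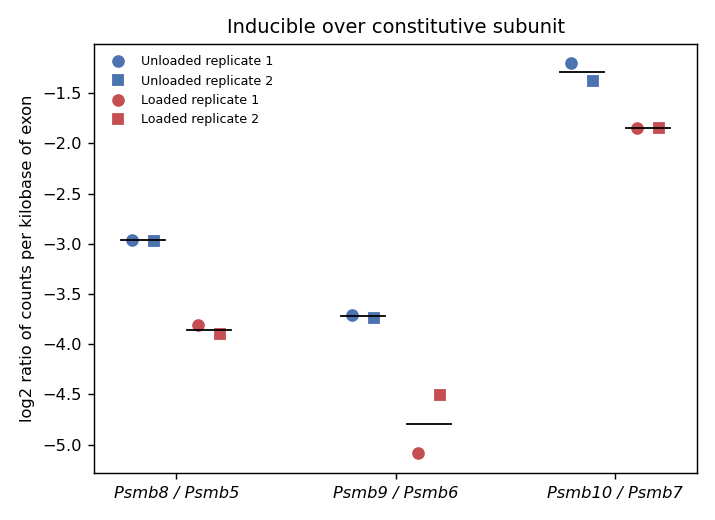
Log2 ratio of counts per kilobase of exon for each immunoproteasome subunit over the standard subunit it replaces, in each library (circle, replicate 1; square, replicate 2; blue, unloaded; red, loaded; bar, group mean). Both loaded libraries lie below both unloaded libraries for all 3 pairs, and the loaded libraries are widest apart for *Psmb9* over *Psmb6*.

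Among 9 proteasome activators and assembly factors, 5 were negative, against 51.5% of all tested genes. Their median was −0.03, and 0 passed the edgeR or DESeq2 test at 0.01. At an unadjusted p under 0.05, 2 were lower and 1 higher, against 7.46% and 6.88% of all genes. The lower ones were *Psme1* and *Psme2*, which encode the interferon-inducible PA28 cap. *Psme2* had 127 and 125 CPM in unloaded and 109 and 106 CPM in loaded cells (log2 fold change −0.23, edgeR adjusted p = 0.226), and *Psme1*, named after its values were seen, 64.7 and 68.4 against 47.2 and 55.1 CPM (−0.38, 0.205). *Psme3*, encoding the nuclear PA28 gamma cap, had 175 and 184 against 203 and 197 CPM (0.15, 0.377), and *Psme4*, encoding PA200, was the higher one (0.26, 0.188).

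*Tap1* and *Psmb9* are divergent neighbours. Their start sites in RefSeq lie 226 bp apart on opposite strands, and their promoter windows share 275 bp, so this stretch is shown from the *Psmb9* side, with its CCAAT match in capitals:
Psmb9 (chr17:34187331-34187530, minus strand): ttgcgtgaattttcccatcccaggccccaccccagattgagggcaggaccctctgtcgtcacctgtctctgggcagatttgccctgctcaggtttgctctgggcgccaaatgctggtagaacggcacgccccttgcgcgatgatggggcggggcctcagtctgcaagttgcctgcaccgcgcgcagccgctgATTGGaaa
The windows of *Tap1* and *Psmb9* held none of the other motifs. Their annotated exons share 212 bp on opposite strands, which is 3.9% of the exon length of *Tap1* and 5.8% of that of *Psmb9*. Whether the counting used strand is not given in the sources used here, so reads of this stretch may belong to either gene. The windows of *Psmb8* and *Psmb10* held no match to any of the motifs, and that of *Tapbp* held only CCAAT. The 3 members with the X2-Y pair had log2 fold changes of −0.73, −0.17 and −0.09, and the 5 matched members without it lay between −0.95 and −0.42. Among the other windows read, *H2-M3* held the pair (0.06), and *Psmb5* (0.26), *Psmb6* (0.12), *H2-T23* (−0.18), *H2-Q4* (−0.46) and *H2-T22* (−0.51) lacked it. A link of motif and value was not tested. The RefSeq start sites of *Tapbp* (33919478) and *Psmb8* (34198195) lie inside the gene spans given here, which begin at 33915899 and 34197721. That of *H2-D1* (35263094) also lies inside its span, which begins at 35262730. On the minus strand, those of *Psmb9* (34187330) and *Psmb10* (105938392) lie inside spans that reach to 34187764 and 105938444.

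*Nlrc5* encodes the transactivator that is recruited to class I promoters (ENSMUSG00000074151.13, chr8:94434356-94527272, plus strand). It had 38.8 and 36.7 CPM in unloaded and 36.5 and 32.7 CPM in loaded cells. The groups did not overlap, but the lower unloaded and the higher loaded library were nearly equal. The means were 37.8 ± 1.47 and 34.6 ± 2.64 CPM, and the fitted log2 fold change was −0.13 (SE 0.105, 95% interval −0.38 to 0.13, edgeR adjusted p = 0.646). The lower end of this interval lies above the values of *H2-K1*, *Tap1*, *Tap2*, *Tapbp* and the 3 immunoproteasome subunits. The interval includes the values of *H2-D1* and *B2m*. The intervals of *Tap1*, *Tap2*, *Tapbp*, *Psmb8* and *Psmb10* overlap that of *Nlrc5*, and those of *H2-K1* and *Psmb9* do not. Differences between genes were not tested.

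The 12 listed factors that act at class I promoters had a median log2 fold change of −0.19. Of the 12, 8 were negative and 7 had both loaded libraries below both unloaded ones, against 51.5% and 24.5% of all tested genes. In the edgeR test 0 passed at 0.01 or at 0.05. At an unadjusted p under 0.05, 2 were lower and 0 higher, against 7.46% and 6.88% of all genes. DESeq2 called *Irf1* lower at 0.01, against 1.52% of its tested genes. The factors at an unadjusted p under 0.05 were *Rfx5* and *Irf1*, named after their values were seen. *Rfx5*, the DNA-binding part of the RFX complex, had 32.9 and 33.9 CPM in unloaded and 23.2 and 19.8 CPM in loaded cells (−0.63, SE 0.118, edgeR adjusted p = 0.0937), with 26.8% of its exon length overlapping the antisense gene *B230398E01Rik*. *Irf1*, an interferon-induced activator, had 75.6 and 105 against 61.9 and 60.5 CPM (−0.56, edgeR adjusted p = 0.193). The most abundant factors were closer to 0. These were *Nfkb1* (−0.14, edgeR adjusted p = 0.491), *Rela* (0.08, 0.801) and *Atf1* (0.19, 0.552).

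**Figure D3:**
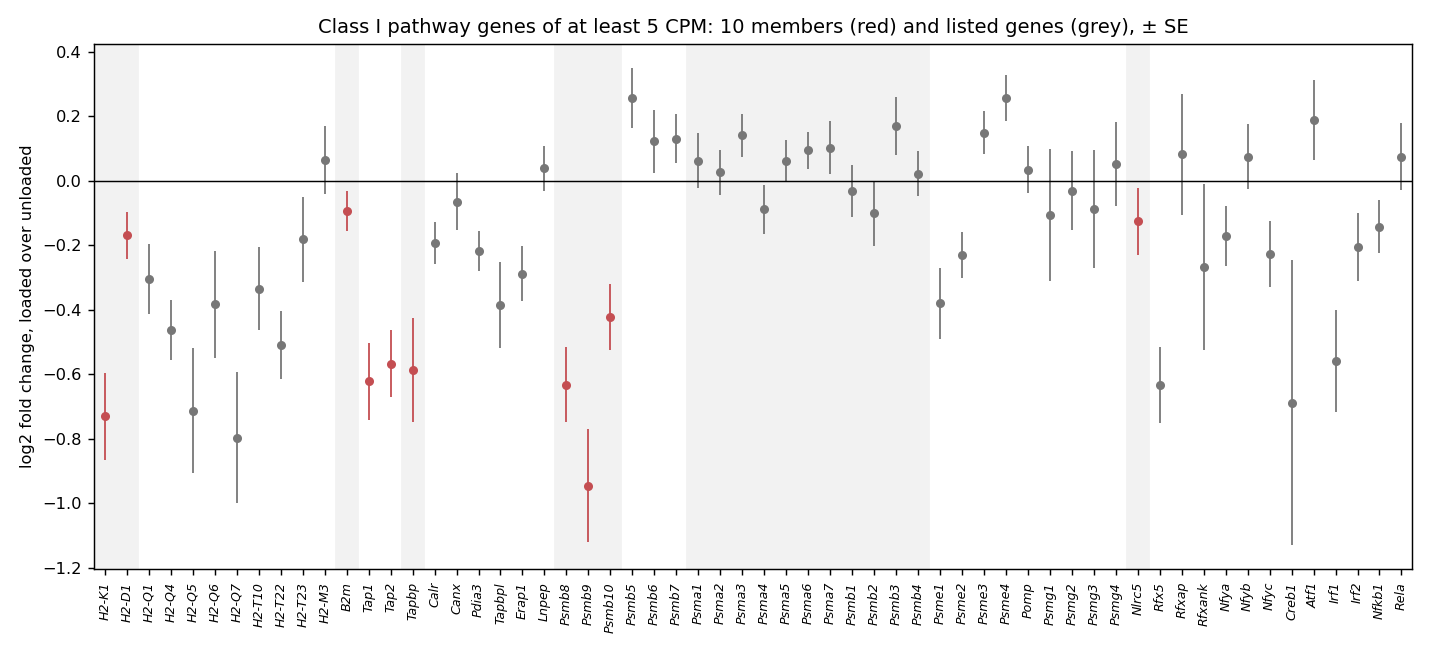
Log2 fold change, loaded over unloaded, of the 10 class I genes (red) and the listed pathway genes with a mean of at least 5 CPM (grey), with SE as error bars and alternating shading for the lists in the order heavy chains, other heavy chains, *B2m*, transporter, tapasin, loading and trimming, immunoproteasome, standard catalytic subunits, other 20S subunits, activators and assembly, *Nlrc5* and promoter factors. The 3 standard catalytic subunits lie above 0 beside the 3 immunoproteasome subunits below it.

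The levels of the members differed widely. Per kilobase of exon, the order in unloaded cells was *B2m* at 583 CPM per kilobase, *H2-D1* at 122, *Tapbp* at 101, *H2-K1* at 24.3, *Psmb10* at 23.6, *Psmb8* at 18.6, *Tap2* at 17.6, *Tap1* at 7.92, *Nlrc5* at 4.45 and *Psmb9* at 4.28. The ranges of the unloaded libraries overlapped for *H2-K1* and *Psmb10*, for *Psmb8* and *Tap2*, and for *Nlrc5* and *Psmb9*, so these neighbours in the order were not separated. In loaded cells *Psmb10* at 17.6 stood above *H2-K1* at 14.7, *Psmb9* at 2.23 stood below *Nlrc5* at 4.08, and only *Psmb8* and *Tap2* still overlapped. The summed CPM of the 10 members, not scaled by length, was 1506 and 1539 in unloaded and 1170 and 1281 in loaded cells, and *B2m*, *H2-D1* and *Tapbp* made up most of it.

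Relative to *B2m* within each library, per kilobase, the log2 ratio was lower in loaded cells by 0.53 for *Tap1*, 0.47 for *Tap2*, 0.52 for *Tapbp* and 0.63 for *H2-K1*. For all 4 ratios both loaded libraries lay below both unloaded ones, with an exact two-sided permutation p of 0.333, the smallest possible. The ratio of *H2-D1* to *B2m* was −2.34 and −2.17 in unloaded and −2.26 and −2.39 in loaded cells, so its groups overlapped (exact p = 0.667).

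Of the 10 members, 7 lie in the MHC on chromosome 17, where the stretch from *Tapbp* to *H2-M3* (chr17:33915899-37274484) held 136 tested genes. The 7 members had log2 fold changes from −0.95 to −0.17. The 116 tested genes of this stretch that are neither members nor listed class I heavy chains had a median of −0.06. Of the 116, 66 were below and 50 above 0, against 51.5% of all tested genes below 0. The 116 include the unlisted H2 pseudogenes *H2-K2*, *H2-Bl* and *H2-T-ps*. *Gm11127*, *Gm8909* and *Gm10499*, which share 50-base stretches with *H2-D1*, are also among them. The 116 are thus not free of class I sequence. Of the 116, 0 passed the edgeR test at 0.01. At an unadjusted p under 0.05, 7 were lower and 7 higher, against 7.46% and 6.88% of all genes. At 0.05 adjusted the call was 1 higher gene, against 0.338% of all genes higher. It was *Ier3*, named after its values were seen (0.63, edgeR adjusted p = 0.0322). At an adjusted p under 0.01, limma-voom called 0, against 0.0799% of all genes lower and 0.0184% higher. The exact test of edgeR called *Ier3*, against 1.08% lower and 0.639% higher. DESeq2 gave 89 of the 116 an adjusted p. It called 2 lower (*Tcf19* and *Mdc1*) and 3 higher (*Ier3*, *Ppp1r10* and *A930015D03Rik*), against 1.52% and 1.34% of its tested genes. *Ring1*, which lies 20445 bp from *H2-K1*, had a log2 fold change of 0.01 (0.987), and *Ddx39b*, 9023 bp from *H2-D1*, had −0.03 (0.891). *Daxx*, 309 bp from the annotated gene span of *Tapbp*, was at −0.40 (0.188), while *Zbtb22*, which overlaps the exons of *Tapbp* on the same strand over 149 bp, was at −0.07 (0.832). The RefSeq start site of *Tapbp*, used for its promoter window, lies further from *Daxx*, at 33919478 beyond *Zbtb22*. *H2-K2*, an unlisted H2 pseudogene between *H2-K1* and *Tapbp*, had 5.23 and 5.02 CPM in unloaded and 2.88 and 2.82 CPM in loaded cells (−0.85, 0.178). Outside the MHC, *Spg11* near *B2m* was at 0.09 (0.791).

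**Figure D4:**
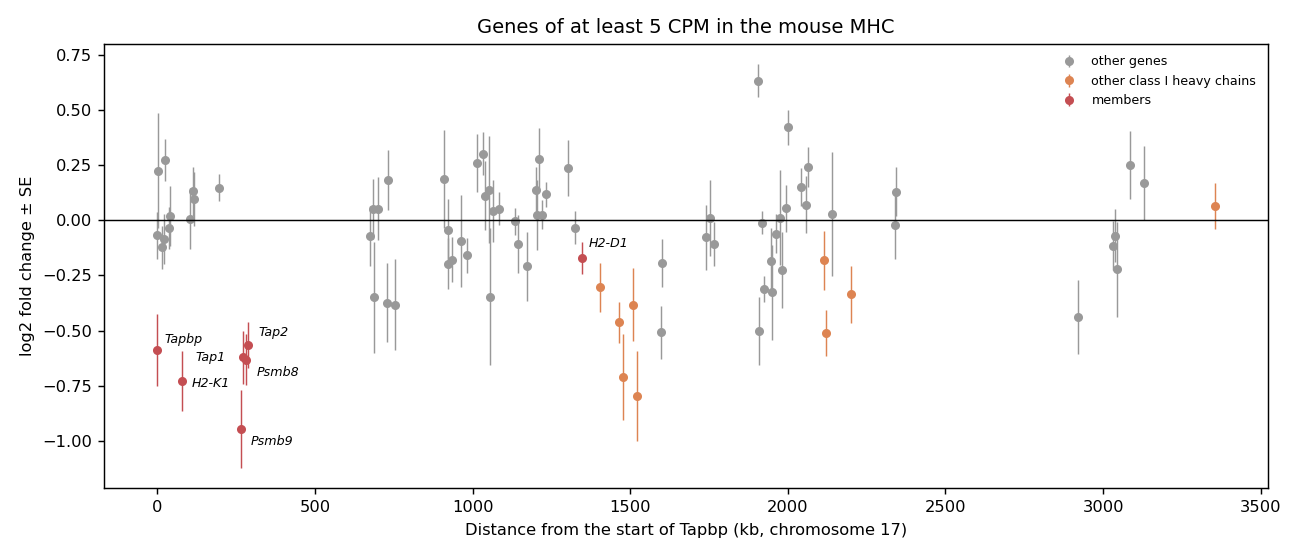
Log2 fold change, loaded over unloaded, with SE, against the distance from the start of *Tapbp* for 85 genes of the mouse MHC on chromosome 17 with a mean of at least 5 CPM. Members are red, other listed class I heavy chains orange and 69 other genes grey. The members lie at or below −0.17, among other genes scattered on both sides of 0.

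*B2m* also pairs with heavy chains encoded outside the H2 locus, of which *Mr1* (log2 fold change 0.03, edgeR adjusted p = 0.943), *Fcgrt* (−0.13, 0.778) and *Hfe* (−0.51, 0.525) were the most abundant. Of these 4 listed genes, 3 were negative, against 51.5% of all tested genes. None had groups that did not overlap, against 24.5% of all genes with both loaded libraries below and 22.1% above. At an unadjusted p under 0.05, 0 passed, against 7.46% of all genes lower and 6.88% higher. In DESeq2 at 0.01, 0 passed, against 1.52% and 1.34% of its tested genes.

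MHC class II presentation, which is the task of professional antigen presenting cells, was near absent. Of 12 listed genes 4 had no counts in any library and 2 were tested. *Ciita*, the class II counterpart of *Nlrc5*, had 0 and 4 counts in unloaded and 4 and 2 counts in loaded cells. *Cd74*, encoding the invariant chain, had 3.17 and 2.08 against 2.73 and 2.01 CPM (−0.14, edgeR adjusted p = 0.898). *H2-DMa* was in the other direction from the class I genes, with 2.1 and 2.57 CPM in unloaded and 4.12 and 3.56 CPM in loaded cells (0.72, edgeR adjusted p = 0.316). Its exons overlap those of *Brd2* on the opposite strand over 360 bp (10.4%). *Brd2* had a mean of 277 CPM (0.15), so reads of *Brd2* may be among the counts of *H2-DMa*. *H2-Eb1*, a class II beta chain, had 22 counts in unloaded replicate 2, 4 in loaded replicate 1 and 0 in the others.

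Leukocytes carry high levels of class I genes, so their markers were read in the same libraries. Of the 11 markers, *Tyrobp*, *Cd3e* and *Nkg7* had no counts in any library, and *Ptprc*, which encodes CD45, had 3 counts in loaded replicate 1 and 0 in the others. *Csf1r* was the exception at 1558 to 1584 CPM in all 4 libraries (log2 fold change −0.02), with 15.1% of its exon length overlapping *Hmgxb3* on the opposite strand. The summed CPM of the 10 other markers was 4.88 to 5.75 in unloaded and 2.82 to 3.41 in loaded cells, most of it *Cd68*, so it was lower where the class I genes were lower. The part of this in the class I values was not tested. The 4 endothelial markers summed to 2.18 to 3.37 CPM in unloaded and 1.71 to 2.91 CPM in loaded cells, with members on both sides of 0. *Cdh5* had 61 and 32 counts in unloaded and 38 and 27 in loaded cells, and *Pecam1* had 29, 29 and 32 counts with 0 in loaded replicate 2. *Kdr*, which encodes a VEGF receptor, had 0 counts in both unloaded libraries and 17 and 14 counts in the loaded ones, the opposite direction from the class I genes (edgeR adjusted p = 0.135).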

How the data were processed

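RNA-seq libraries were made by the authors from 2 unloaded and 2 loaded samples of MLO-Y4 cells after depletion of ribosomal RNA. Groups and replicate numbers were taken from the sample titles. After trimming and filtering, the authors aligned the reads to mm10 (HISAT2 2.1.0), assembled transcripts (StringTie 1.3.5) and took gene counts from the assembly with the prepDE script. Versions are those of the submitters' processing notes. The deposited table holds raw, whole-number counts that were not normalized. Strandedness, read length and annotation release are not given in the sources used here. All 55450 identifiers, versions included, occur in GENCODE M21 (GRCm38), which supplied coordinates and exon lengths, and promoter windows came from RefSeq (GRCm38.p6).

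Counts were filtered with filterByExpr (minimum 10) in edgeR 4.0.16 (R 4.3.3), scaled by TMM and tested with glmQLFit and glmQLFTest over 16269 genes, with Benjamini-Hochberg adjustment and a threshold of 0.01. The SE was obtained from the log2 fold change and the F statistic. The common biological coefficient of variation was 16.6%. Libraries held 28941994 to 32185693 counts, and intervals cover the spread between libraries, as 2 per group allow. Ratios were compared by an exact permutation test over libraries. Alternatives were limma-voom (limma 3.58.1), edgeR's exact test, DESeq2 1.42.0, RLE and upper-quartile factors, no filter, a filter of at least 10 counts in each library, a block on the replicate number, an adjusted p under 0.05 and leaving out each library. The code was run on simulated counts with planted changes and the same dispersion for every gene. Such counts lack the gene-to-gene differences in spread of real libraries, so they do not show how the tests perform on these data. Sequences were read in Python 3.11.15 with Biopython 1.88.

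The members, the gene lists and the naming rule were chosen with earlier results of these data known. Named were all 10 members, list genes with an edgeR adjusted p under 0.05, the 3 most abundant genes of each list, the standard proteasome partners, *Ciita* and chromosomal neighbours. Other genes are marked where named or were the calls of another tool. 2 items that this rule covers are not reported here. ChIP-seq, protein and qPCR data of the study were not analysed here.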

Additional observations from a re-analysis of the deposited data

How the results depend on the processing

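Each member was recomputed under 13 alternatives that use all of the same 4 libraries or leave out 1 of them. The groups did not overlap for any member in these libraries, so a change of sign was hardly possible. All 130 values were negative as in the main test. Of these, 9 passed an adjusted p under 0.01. The count of members called lower was 0 in the main test, 4 with DESeq2, 3 with edgeR's exact test, 2 with the replicate block in DESeq2 (*H2-K1* and *Tapbp*), 0 with the replicate block in edgeR and 0 whichever library was left out. The median log2 fold change of the members was −0.56 to −0.50 when 1 library was left out. For the other listed pathway genes, 0 were called in the main test, 3 with DESeq2, and 0 with the exact test, with the replicate block in DESeq2 or at an adjusted p under 0.05. The summed heavy chains were at −0.30 and passed with DESeq2, while the replicate block in edgeR gave an adjusted p of 0.246. Over all genes the main test called 16, DESeq2 361, the exact test 279, a filter of at least 10 counts in every library 29, no filter 0, an adjusted p under 0.05 147, the replicate block in edgeR 0 (1839 at an unadjusted p under 0.05) and the replicate block in DESeq2 158. Left-out libraries gave 0 to 58, with 0 without either loaded replicate, 50 without unloaded replicate 1 and 58 without unloaded replicate 2. The cause of these shifts was not tested. Deviations of same-numbered libraries correlated at −0.07, and with 2 pairs the numbers were not taken to pair the samples. Without 1 library, the log2 fold change was −0.15 to −0.03 for *B2m*, −0.20 to −0.05 for *Nlrc5*, −0.24 to −0.09 for *H2-D1* and −1.14 to −0.77 for *Psmb9*.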

Other observations

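*Creb1*, which encodes a factor of the X2 site and was chosen here after its values were seen, had 88.1 and 88.0 CPM in unloaded and 81.5 and 27.7 CPM in loaded cells, so loaded replicate 2 stood apart from the other libraries (log2 fold change −0.69, SE 0.443, edgeR adjusted p = 0.544). *A930015D03Rik*, antisense to *H2-T22* and likewise singled out for its values, was at 2.62 on the log2 scale (SE 0.646, edgeR adjusted p = 0.153), with loaded libraries at 215 and 55 counts against 21 and 20 counts in unloaded cells.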
